A study of Malus domestica with 6 samples.

Results

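Transcripts of 8 genes described as chlorophyll a/b binding or light-harvesting proteins were followed in red flesh (RF) and white flesh (WF) of apple cv. 'R201', a cultivar whose flesh is red after fruit set and later loses colour in part. The 8 IDs were picked by name from 52311 gene IDs, and all 8 stood in the list of genes that the study called different between RF and WF on these same libraries. RF to WF differences of the 8 are therefore given as a description, without a test. There were 3 RF and 3 WF libraries, lettered A to C, from untreated fruits at 84 days after full bloom. Both groups were mesocarp, the edible flesh, of this 1 cultivar. Each fruit gave both flesh types, and the letters stand for semi-biological replicates, with fruits from different trees. By the study's methods RF was outer flesh, so colour and position in the fruit cannot be told apart.

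Light-harvesting proteins sit in the thylakoid membranes of chloroplasts, bind chlorophyll and carotenoids, and pass absorbed light energy to the reaction centres of photosystem I and photosystem II. Most are encoded by families of near-identical nuclear genes, which are known in leaves for strong expression that follows light and chloroplast development. Young apple flesh is in general a green tissue, and its chloroplasts are lost or converted as the fruit grows. Flesh of 'R201' is red after fruit set, and its chloroplasts were not measured here.

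By their descriptions, which rest on similarity to Arabidopsis, the 8 genes cover several antenna positions. MD10G1265300 and MD10G1265400 (chromosome 10) are described as chlorophyll A/B binding protein 1, and MD05G1289200 (chromosome 5) as light-harvesting chlorophyll-protein complex II subunit B1, both names of the major trimeric antenna of photosystem II in Arabidopsis. MD05G1000500 (chromosome 5) and MD00G1103100 (in the chromosome 0 set of unplaced sequence) are described as light harvesting complex of photosystem II 5, a minor antenna protein that links the trimers to the core. MD14G1202000 (chromosome 14) is described as complex I subunit A4, part of the antenna belt of photosystem I. MD13G1200600 (chromosome 13) and MD15G1348200 (chromosome 15) are described only as Chlorophyll A-B binding family protein. That description names no subunit and in Arabidopsis also covers light-harvesting-like proteins outside the antenna, so the place of these genes in the antenna is not known here. The study's list held 1 further light-harvesting ID, MD01G1132800, which is outside the 8.

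Library totals ran from 25536185 to 26050906 estimated reads, and the first principal component, with 50.8% of the variance, separated RF from WF. Levels are given in TPM, a gene's share of all transcripts after division by effective length, scaled to the same sum in every library, so that levels of different genes can be set side by side. Estimated reads need not be whole, because a read that fits several genes is divided among them. The fragment length behind the effective lengths ran from 229 to 259 bases between libraries. The pigment genes MD17G1272100 and MD04G1003300 are given for comparison. The first, which the study calls MdGSTU22, is a glutathione S-transferase of class phi by its description. The second is MdCHS, a chalcone synthase. They were at 343 ± 32.2 and 414 ± 44.1 TPM in WF and at 1566 ± 178 and 1438 ± 85.7 TPM in RF (SD, n = 3). Both came from the study's called genes on these libraries, so this checks only that the labels were read as in the study.

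Taken as a sum, transcripts of the 8 genes were more abundant in RF than in WF in each pair. The summed level was 1299, 1206 and 1390 TPM in WF libraries A, B and C, and 1999, 1897 and 2046 TPM in RF libraries A, B and C. The groups did not overlap, and the means were 1298 ± 92.1 TPM in WF and 1981 ± 76.1 TPM in RF (SD, n = 3). The RF over WF ratio of the sum was 1.54 in pair A, 1.57 in pair B and 1.47 in pair C, with a mean of 1.53 ± 0.052 (SD, n = 3). Without MD13G1200600, which made up most of the sum, the ratio was 1.27, 1.50 and 1.14 in pairs A, B and C. Without both MD13G1200600 and MD10G1265400, the only gene lower in RF, it was 1.55, 1.82 and 1.34. The 8 genes held 0.0809% to 0.0938% of all estimated reads in WF and 0.126% to 0.131% in RF. In bulk flesh, fewer cells with chloroplasts and less RNA per such cell cannot be told apart.

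**Figure D1:**
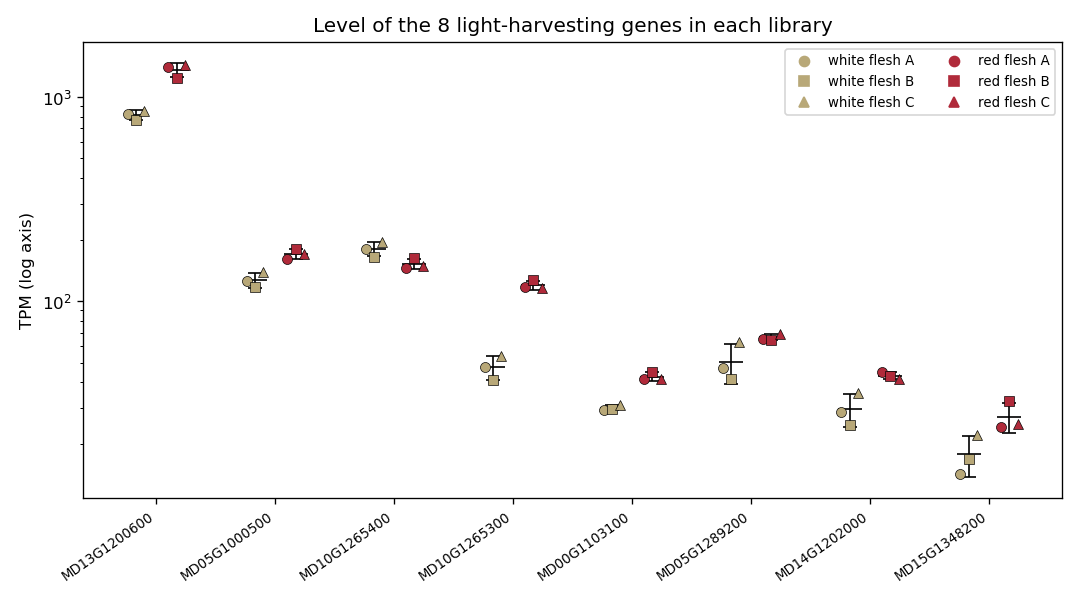
TPM of each of the 8 genes on a log axis, with WF libraries in tan and RF libraries in red, symbols for letters A to C, and black bars for the mean ± SD of 3 libraries. RF lies above WF without overlap for every gene but MD10G1265400, for which RF lies below.

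MD13G1200600 was by far the most abundant of the 8. It had 825, 770 and 852 TPM in WF libraries A, B and C and 1399, 1242 and 1435 TPM in RF libraries A, B and C. Every RF library was above every WF library, and library B was the lowest in both flesh types. The log2 fold change in the edgeR fit over all genes was 0.73 (SE 0.076). Its RF over WF ratio was 1.70, 1.61 and 1.68 in pairs A, B and C, closer together than for any of the other 7 genes. Ranked by TPM among all gene IDs of a library, it stood between places 74 and 92 in WF and between 38 and 47 in RF. These levels rest on 11032 to 20213 estimated reads per library, for which counting error alone is below 1% (0.925% in WF and 0.724% in RF, as the coefficient of variation of a count of the group's mean size).

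MD15G1348200, of the same description, was the least abundant member. It had 14.3, 16.9 and 22.2 TPM in WF libraries A, B and C against 24.3, 32.5 and 25.02 TPM in RF libraries A, B and C. The groups did not overlap, but the highest WF library and the lowest RF library were only about 2 TPM apart. The spread between replicates, 22.6% of the mean in WF and 16.6% in RF, was well above the 4.72% and 3.85% of counting error. The log2 fold change was 0.61 (SE 0.15), and the pair ratios were 1.70, 1.92 and 1.13 for A, B and C.

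Among the genes described as the major photosystem II antenna, the 2 neighbouring IDs on chromosome 10 went in opposite directions. MD10G1265300 had 47.7, 41.0 and 53.8 TPM in WF libraries A, B and C and 117, 127 and 116 TPM in RF libraries A, B and C. Its RF libraries were all more than 2 times the highest WF library, and its log2 fold change of 1.33 (SE 0.091) was the highest of the 8. MD10G1265400 had 181, 165 and 194 TPM in WF libraries A, B and C and 146, 163 and 149 TPM in RF libraries A, B and C. All RF libraries lay below all WF libraries, but the gap between RF library B and WF library B was under 3 TPM. The log2 fold change was -0.24 (SE 0.072), and the pair ratios were 0.81, 0.98 and 0.77 for A, B and C.

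The balance between the 2 copies differed between the flesh types. MD10G1265400 was 3.79, 4.03 and 3.60 times as abundant as MD10G1265300 in WF libraries A, B and C, and 1.25, 1.28 and 1.29 times in RF libraries A, B and C. MD10G1265400 thus made up 79.2 ± 0.92% of the pair in WF and 56.0 ± 0.43% in RF (SD, n = 3). The values within each flesh type lay close together, and MD10G1265400 was the more abundant copy in all 6 libraries. Summed, the 2 copies had 228, 206 and 247 TPM in WF libraries A, B and C and 262, 289 and 264 TPM in RF libraries A, B and C. The sum was higher in RF by a ratio of 1.15, 1.40 and 1.07 in pairs A, B and C, which is less than the ratio of MD10G1265300 alone in each pair (2.45, 3.09 and 2.15). The IDs follow each other directly in the table, have the same description and similar lengths (876 and 841 bases), and had estimated reads that were not whole in all 6 libraries. Reads were therefore divided between these or other similar genes. This is no special trait of the pair, as estimates were not whole for 53.5% to 58.5% of IDs with reads in a library. The level of each copy is uncertain, and so is their sum if reads were shared with other genes. Neither was tested. Their sequences were not compared here.

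**Figure D2:**
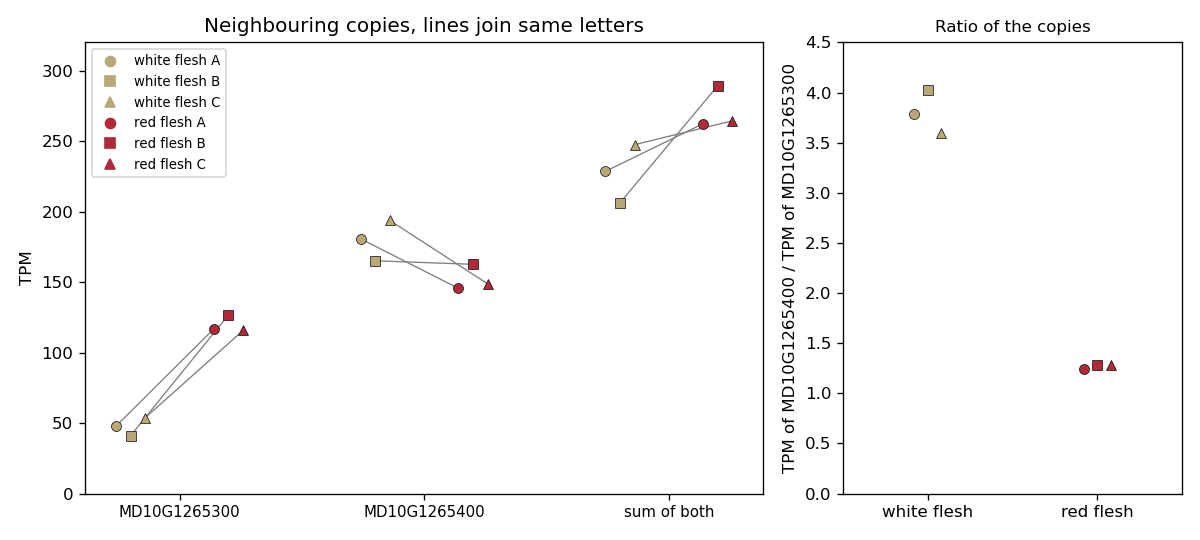
Left, TPM of MD10G1265300, of MD10G1265400 and of their sum in each library, with lines joining WF and RF of the same letter. Right, the ratio of MD10G1265400 to MD10G1265300, which lies between 3.60 and 4.03 in WF and between 1.25 and 1.29 in RF.

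The other gene described as the major antenna, MD05G1289200, had 47.1, 41.4 and 63.4 TPM in WF libraries A, B and C and 65.6, 64.9 and 69.1 TPM in RF libraries A, B and C. The groups did not overlap, although WF library C came within 2 TPM of RF library B, the lowest RF library. Replicates spread by 22.5% of the mean in WF and by 3.42% in RF, and counting error was 4.06% and 3.57%. The log2 fold change was 0.39 (SE 0.13), and ran from 0.26 without WF library B (edgeR adjusted p = 0.262) to 0.58 without WF library C.

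The 2 genes described as the minor antenna protein of photosystem II kept a like ratio to each other in both flesh types, unlike the neighbours on chromosome 10. MD05G1000500 had 125, 117 and 139 TPM in WF libraries A, B and C and 162, 181 and 170 TPM in RF libraries A, B and C. MD00G1103100 had 29.4, 29.7 and 31.1 TPM in WF libraries A, B and C and 41.5, 45.1 and 41.5 TPM in RF libraries A, B and C. Neither gene overlapped between the groups, with log2 fold changes of 0.43 (SE 0.075) and 0.51 (SE 0.065). MD05G1000500 was 4.22 ± 0.26 times as abundant as MD00G1103100 in WF and 4.00 ± 0.10 times in RF (SD, n = 3), and these ranges overlapped. MD00G1103100 had the lowest replicate spread of the 8 in WF, 2.97% of the mean, which is under the 4.00% of counting error.

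The antenna gene of photosystem I, MD14G1202000, had 28.7, 24.7 and 35.6 TPM in WF libraries A, B and C and 44.9, 42.8 and 41.6 TPM in RF libraries A, B and C. The groups did not overlap, the log2 fold change was 0.54 (SE 0.11), and the pair ratios were 1.57, 1.73 and 1.17 for A, B and C. Counting an estimate as whole when it lay within 1e-06 of a whole number, this gene and MD15G1348200 had whole estimated reads in 2 of 6 libraries each, and the remaining 6 members in none.

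In order of mean TPM over both flesh types, the 8 genes ran MD13G1200600 (1087), MD10G1265400 (166), MD05G1000500 (149), MD10G1265300 (83.6), MD05G1289200 (58.6), MD00G1103100 (36.4), MD14G1202000 (36.4) and MD15G1348200 (22.5). The order was not the same in both tissues. In WF, MD10G1265400 stood above MD05G1000500 in all 3 libraries, and in RF below it in all 3. MD10G1265300 and MD05G1289200 were close in WF, at 47.5 ± 6.40 and 50.6 ± 11.4 TPM, and apart in RF, at 120 ± 6.07 and 66.5 ± 2.27 TPM (SD, n = 3). MD00G1103100 and MD14G1202000 did not differ beyond their spread in either tissue, at 30.1 ± 0.89 and 29.7 ± 5.49 TPM in WF and 42.7 ± 2.06 and 43.1 ± 1.65 TPM in RF.

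The make-up of the family sum shifted towards MD13G1200600 and away from MD10G1265400. MD13G1200600 held 63.6%, 63.8% and 61.3% of the summed TPM in WF libraries A, B and C and 70.0%, 65.5% and 70.1% in RF libraries A, B and C. MD10G1265400 held 13.8 ± 0.14% in WF and 7.71 ± 0.75% in RF, a difference of -6.14 percentage points, the widest of the 8. MD10G1265300 went from 3.65 ± 0.24% to 6.06 ± 0.55%, and MD05G1000500 from 9.78 ± 0.17% to 8.63 ± 0.78% (SD, n = 3). Shares of MD00G1103100, MD14G1202000 and MD15G1348200 overlapped between the tissues. Shares of MD05G1289200 did not overlap by a narrow margin, with 3.44% in WF library B and 3.42% in RF library B. Shares of 1 sum depend on each other, so a larger share of 1 gene lowers the others.

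**Figure D3:**
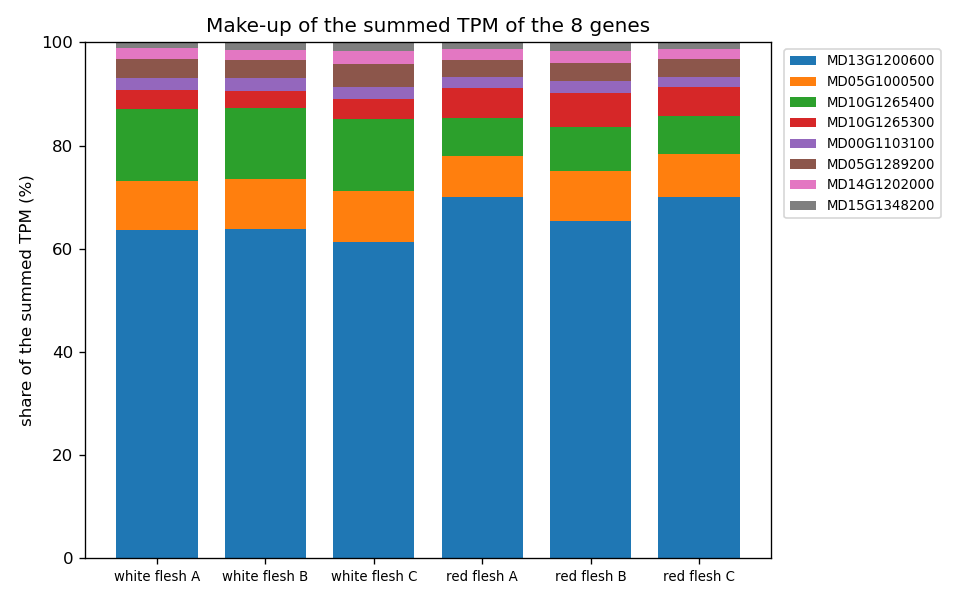
Stacked bars of the share of each gene in the summed TPM of the 8 genes, from 0 to 100%, for the 3 WF and 3 RF libraries. The lowest block, MD13G1200600, runs from 61.3% to 63.8% in WF and from 65.5% to 70.1% in RF, and the block of MD10G1265400 is narrower in RF.

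The replicates of WF also differed among themselves in a shared way. The genes were not picked on the order of the WF replicates, but the calls behind the choice used these same WF values. Library C was the highest WF library for all 8 genes, against 31.9% of the 28610 genes tested. Library B was the lowest WF library for 6 genes and library A for the other 2, MD00G1103100 and MD15G1348200. In RF no library stood out as evenly, with B highest for 5 genes, C for 2 and A for 1. Among 30 other tested photosynthesis genes, library C was the highest WF library for 27. Of 4 pigment genes from the study's called genes, library C was the highest WF library for 1, MD04G1003300. It was the lowest WF library for MD17G1272100, MD04G1096200 (PHE ammonia lyase 1) and MD15G1024100 (dihydroflavonol 4-reductase). The members are not independent of each other, so this is a count without a test. Between replicates, the spread relative to the mean was wider in WF than in RF for 6 of the 8 genes. MD13G1200600 and MD00G1103100 were the exceptions. The same held for 52.0% of all genes tested and for 16 of the 30 other photosynthesis genes. Calls depend on the spread, so the choice of the genes bears on this count.

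The RF over WF ratio was lowest in pair C for 7 of 8 genes, against 30.3% of all genes tested. It was highest in pair B for 7 of 8, against 35.1%. Of the 30 other tested photosynthesis genes, pair C was lowest for 27 and pair B highest for 22. The ratio in pair C is divided by WF library C, which was the highest WF library for all 8 genes. MD13G1200600 was the exception in both counts. For MD05G1289200, MD14G1202000 and MD15G1348200 the ratio in pair C was 1.09, 1.17 and 1.13, while in pair B it was 1.57, 1.73 and 1.92.

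**Figure D4:**
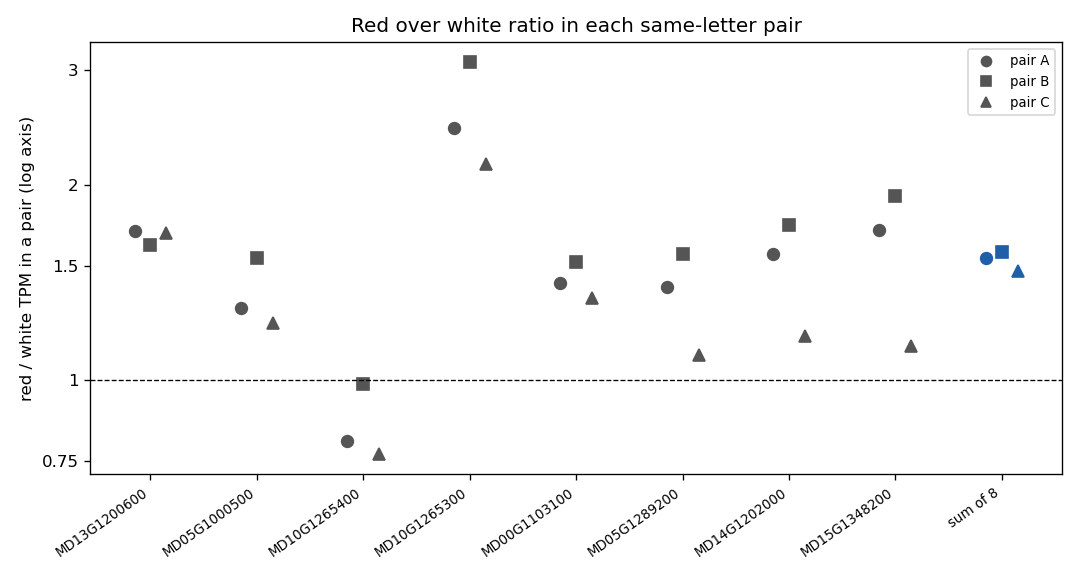
Ratio of RF to WF TPM on a log axis in pairs A, B and C for each gene, and for the sum of the 8 (blue), with a dashed line at a ratio of 1. Pair C gives the lowest ratio for all genes but MD13G1200600, and the ratio of the sum lies between 1.47 and 1.57 in the 3 pairs.

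In the fit over all genes (edgeR's quasi-likelihood test, genes called at an adjusted p under 0.05), 6 of the 8 were called higher in RF and 0 lower, where 6.08% and 4.68% of all 28610 genes tested were called higher and lower. Nothing is read from these counts, because the genes were picked from calls on the same libraries. The 2 that were not called were MD10G1265400 and MD05G1289200. At an unadjusted p under 0.05 in edgeR the counts were 7 higher and 1 lower, where 13.0% and 11.6% of all genes tested were higher and lower. DESeq2, at an adjusted p under 0.05, also called 7 higher and 1 lower, where 5.04% and 3.71% of the genes it tested were called. Nearest to the threshold in that DESeq2 fit were MD10G1265400 and MD05G1289200 (adjusted p = 0.0451 and 0.0362). With the letter as a further term in the model (replicate block), edgeR called 7 higher and 1 lower, where 10.4% and 8.39% of all genes were called. DESeq2 with that block called 6 higher and 0 lower, where 4.84% and 3.37% of all genes it tested were called. The calls of MD13G1200600, MD10G1265300, MD00G1103100 and MD05G1000500 were kept without any 1 library. That of MD15G1348200 was lost without WF library A or B or RF library B (edgeR adjusted p = 0.0608, 0.103 and 0.103), and that of MD14G1202000 without RF library A (edgeR adjusted p = 0.054). MD05G1289200 was called without WF library C (edgeR adjusted p = 0.000626), and MD10G1265400 without WF library B or RF library B (edgeR adjusted p = 0.0484 and 0.0433). The TPM of the groups did not overlap for any of the 8, with RF above for 7 and below for 1, where 15.1% of all genes tested had RF above and 13.9% RF below. The median log2 fold change was 0.52 for the 8 genes and -0.0045 for all genes tested.

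Other photosynthesis genes for which a description was held were also mostly more abundant in RF, but nearly all of them were described in the study's own list of called genes, and their counts are no independent evidence of direction. Of 32 such genes, 30 were tested by edgeR, 26 were called higher in RF, 0 lower and 4 were not called. At an unadjusted p under 0.05 in edgeR, 29 were higher and 0 lower, against the 13.0% and 11.6% of all genes tested, and DESeq2 called 29 and 0. With the replicate block 29 were called higher. MD01G1132800, described as light harvesting complex photosystem II, had 4.81 ± 0.035 TPM in WF and 11.2 ± 1.32 TPM in RF (SD, n = 3). Its log2 fold change of 1.22 was near that of MD10G1265300. It had only 112 to 115 reads per WF library, and the WF spread of 0.729% of the mean was far under the 9.41% of counting error. For photosystem I, 5 of 5 tested genes were called higher, among them subunit O (MD11G1169900), at 78.4 ± 5.62 and 98.6 ± 5.82 TPM, and the PSI-L gene MD04G1244400 (log2 fold change 0.46, SE 0.12). The call of MD11G1169900 was lost without WF library B or RF library B (edgeR adjusted p = 0.0777 and 0.0555), and that of MD04G1244400 without WF library B, RF library B or RF library C (0.135, 0.116 and 0.115).

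For photosystem II, 6 of 7 genes were called higher. The exception, subunit Q-2 (MD05G1336200) of the oxygen-evolving complex, was at 117 ± 11.2 TPM in WF and 140 ± 9.23 TPM in RF, with an edgeR adjusted p of 0.0582. It was called with the letter as a block (edgeR adjusted p = 0.0145) and without WF library C (edgeR adjusted p = 0.014). The gene described as photosystem II BY (MD16G1106800) was at 29.0 ± 3.58 and 44.9 ± 9.17 TPM, and its call was lost without WF library A or B or RF library A or C (edgeR adjusted p from 0.0601 to 0.094). Of 5 electron transport genes 4 were called higher, with plastocyanin 1 (MD08G1007200), a copper protein that carries electrons to photosystem I, at 94.1 ± 6.84 TPM in WF and 130 ± 12.7 TPM in RF. The call of plastocyanin was lost without WF library B or RF library A (edgeR adjusted p = 0.0628 and 0.0515). The Rieske iron-sulphur gene MD17G1086300, described as photosynthetic electron transfer C, was at 54.4 ± 3.07 and 87.9 ± 11.3 TPM. For carbon fixation 10 of 11 tested genes were called higher. Rubisco activase MD11G1095300 was at 89.0 ± 18.9 and 191 ± 24.8 TPM, and the Rubisco small subunit MD17G1244400 at 47.1 ± 5.95 and 187 ± 49.2 TPM, so its ratio was larger than that of any of the 8.

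**Figure D5:**
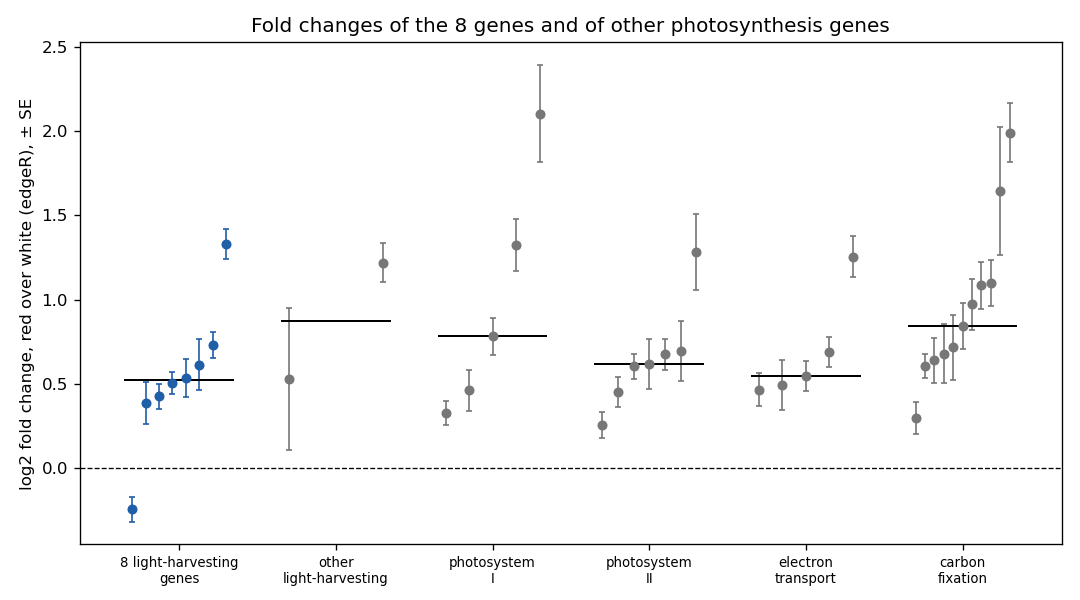
Log2 fold change of RF over WF from edgeR, with SE, for the 8 genes (blue) and for tested genes of 5 other photosynthesis lists (grey), with a black line at the median of each list. The 8 genes run from -0.24 to 1.33 with a median of 0.52, and MD10G1265400 is the only point below 0.

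Carotenoids and chlorophyll are the pigments that the antenna binds. Of 8 genes of pigment synthesis, chlorophyll breakdown and antenna control, 7 were called higher and 1 lower by edgeR. Phytoene desaturase 3 (MD04G1023800), an early carotenoid enzyme, was at 48.8 ± 1.14 TPM in WF and 63.1 ± 1.54 TPM in RF (SD, n = 3). The lower one was zeta-carotene desaturase (MD12G1237300), the next desaturase in that pathway, at 64.6 ± 8.45 and 51.3 ± 3.67 TPM, whose call was lost without any 1 library except WF library A (edgeR adjusted p from 0.0517 to 0.161). The study's called genes were the source of all 8, so nothing is read from these counts.

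Descriptions of 3 photosynthesis genes came from another source, the study's list of genes near methylated regions, so their expression had not been used to pick them. Of the 3, 1 passed the filter on low counts and was tested, and it was not called by edgeR or DESeq2. MD06G1047300, a Chlorophyll A-B binding family protein whose Arabidopsis match is a light-harvesting-like protein, had 7 to 17 reads per library in WF and 9 to 24 in RF (log2 fold change 0.53, SE 0.42, edgeR adjusted p = 0.491, and 0.323 to 0.898 over all settings). Rubisco activase MD07G1202200 had 28 reads over the WF libraries and 12 over the RF libraries and was too low to pass the filter. Fitted by edgeR without the filter, it had a log2 fold change of -1.18 (SE 0.51), with an unadjusted p of 0.0389 and an adjusted p of 0.215, and DESeq2 gave an adjusted p of 0.504. The photosystem I subunit H2 gene MD02G1178900 had 0 reads in all 6 libraries. At this depth these genes cannot show whether photosynthesis genes picked without regard to expression differ between the tissues.

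Of 45 genes of these lists with a mean of at least 50 reads, the 3 whose profile over the 6 libraries was closest to that of the summed 8 genes were the ribulose-phosphate epimerase MD06G1196800, HCF173 (MD09G1169900), a factor for synthesis of a photosystem II core protein, and the Rubisco methyltransferase MD17G1118300. Their root mean square distances, between log2 CPM values centred on their mean, were 0.075, 0.085 and 0.089. These distances take in the RF to WF difference, on which the genes were chosen. Closeness is therefore no independent evidence of shared expression. The log2 fold changes of MD06G1196800, MD09G1169900 and MD17G1118300 were 0.61, 0.61 and 0.64. The call of MD17G1118300 was lost without WF library B or RF library A (edgeR adjusted p = 0.0576 and 0.0559). Among the 8, the profile of MD00G1103100 was closest to that of the sum of the other 7 (0.085). Those of MD10G1265400 (0.46) and MD10G1265300 (0.40) were farthest. MD10G1265400 and MD10G1265300 also had the lowest and highest log2 fold changes of the 8 (-0.24 and 1.33).

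Markers of other cell types were also taken from the study's called genes, so nothing is read from the counts of their calls. By edgeR 6.08% of all genes tested were called higher in RF and 4.68% lower. All 3 epidermis and cuticle markers were called higher in RF, and their summed level was 18.6 to 22.3 TPM in WF and 35.6 to 63.0 TPM in RF, with none at 0. Of these, 3-ketoacyl-CoA synthase 11 (MD15G1178600), of wax and lipid synthesis, was at 18.0 ± 2.71 and 26.8 ± 5.02 TPM, and lipid transfer protein 4 (MD12G1187100) at 1.40 ± 0.65 and 17.4 ± 10.2 TPM (SD, n = 3). Of 4 vascular markers 3 were called higher and 1 lower, with a summed level of 43.6 to 53.5 TPM in WF and 73.7 to 85.0 TPM in RF. Phloem protein 2-B15 (MD04G1197700) was at 15.2 ± 1.79 and 34.7 ± 4.89 TPM and phloem protein 2-A1 (MD05G1254200) at 24.7 ± 2.71 and 19.2 ± 0.65 TPM. The call of MD15G1178600 was lost without WF library B or RF library A (edgeR adjusted p = 0.0848 and 0.0606), and that of MD05G1254200 without any 1 library except WF library C (edgeR adjusted p from 0.0587 to 0.089). The part of these markers in the levels of the light-harvesting genes was not tested.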

How the data were processed

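The authors deposited 1 table per library with, for each gene ID, an estimated count of reads and a TPM value, in the column format of the program salmon. Per the labels, libraries were poly(A)-selected, strand-marked and sequenced as paired reads of 100 bases. The authors named the AnaDiff workflow and the GDDH13 v1.1 apple annotation, and the sources used here give no program version or settings. Other per-gene values that the authors deposited were lengths and effective lengths.

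Estimated counts were rounded and fitted with edgeR 4.0.16 (R 4.3.3) by its quasi-likelihood test, with TMM normalisation, its standard filter and a model of flesh type alone. Two-sided p-values were adjusted (Benjamini-Hochberg) over the 28610 genes that passed. Standard errors came from the fold change and the F statistic. The test was also run on simulated data with independent libraries, which does not bear on the pairing by letter. Alternatives were DESeq2 1.42.0, which the study used, DESeq2 size factors in edgeR, no filter, effective-length offsets, the letter as a replicate block, and leaving out each library. TPM were summed, divided and averaged without a test. P-values measure the spread between these semi-biological replicates.

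The 8 genes, the gene lists and the rule for naming genes were chosen with earlier results of these data known. That rule named the 8 genes, every gene described near methylated regions or as light-harvesting, the 2 with the highest mean TPM of each other list, and the 3 closest in profile. Of the gene IDs, 0 matched the RefSeq table at hand (GDT2T_hap1), so descriptions came from the study's lists, and no coordinates or sequences were used.

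Same-letter RF and WF samples came from the same fruits per the labels. Correlations across genes of their deviations from the group means were 0.27, 0.23 and 0.23 for A, B and C, and 0.00042 or lower between letters. Deviations were taken from each group's own mean, so positive values within letters push those between letters down. The values between letters therefore add no separate evidence. By the labels and the same-letter values the letters paired the samples, but they entered only the ratios by pair and the fits with the replicate block.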

Additional observations from a re-analysis of the deposited data

How the results depend on the processing

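The direction of every 1 of the 8 genes was the same under all 12 alternative settings, and calls of the 8 were as reported with DESeq2 size factors in edgeR, with no filter on low counts and with effective-length offsets. Over all genes, 1740 were called higher and 1340 lower, with the replicate block 2981 and 2401, and with 1 library left out 939 to 1624 and 666 to 1523. Members called lower were 1 in place of 0 by DESeq2 and by edgeR with the replicate block. In those fits 3.71% and 8.39% of all genes tested were called lower. With 1 library left out, 0 to 1 members were called lower. DESeq2 with the replicate block, chosen after seeing the data, called 6 of the 8 higher and 0 lower. Of all genes it tested, 4.84% were called higher and 3.37% lower. It did not call MD15G1348200 (DESeq2 adjusted p = 0.0837) or MD10G1265400 (DESeq2 adjusted p = 0.0551). The RF over WF ratio of the summed TPM was 1.53, or 1.47 to 1.58 with 1 library left out. It was 1.29 without MD13G1200600, and 1.55 without both MD13G1200600 and MD10G1265400. For MD10G1265300 + MD10G1265400 it was 1.20, and 1.14 to 1.25 with 1 library left out. On the scale of TMM-scaled CPM these ratios were 1.50 and 1.21. In edgeR the replicate block changed the calls of MD10G1265400, MD05G1289200 and MD05G1336200 and of no other named gene. DESeq2 with the block also called MD05G1289200 and MD05G1336200, and lost MD04G1244400, MD05G1254200 and MD17G1118300 (adjusted p = 0.0985, 0.0837 and 0.0708). Depth limits the genes near methylated regions, with at most 24 reads per library, and not the 8, with at least 358.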
